A study of Mus musculus with 8 samples.

Results

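The mouse genes Acot1, Acot2, Acot7, Acot9, Acot11 and Acot13 encode acyl-CoA thioesterases of the mitochondria and the cytosol. They were chosen by name, as the rows of the deposited count table whose gene identifiers carry those symbols. All 6 were found among 18395 genes, and all 6 passed the filter on low counts with 13901 genes in all. The table holds RNA-seq read counts of adipose tissue from mice with Kindlin-2 (gene Fermt2) knocked out in brown adipocytes (KO, 4 libraries) and from control mice labelled WT (4 libraries). Both groups had been kept at 4 °C for 6 hours, so no library comes from a mouse kept warm. The adipose depot, the strain, age and sex of the mice and the promoter driving the knockout were not given in the sources used here. Cells other than brown adipocytes keep Fermt2 in such a design. No label states that the replicates were separate animals, so the p-values measure the spread between these libraries, which may be partly technical.

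Acyl-CoA thioesterases hydrolyse acyl-CoA to a free fatty acid and coenzyme A. They thereby act against the acyl-CoA synthetases, which activate fatty acids for oxidation or for storage as lipid, and they can return coenzyme A to the pool when acyl-CoA accumulates. In brown fat, where fatty acids both feed oxidation and activate the uncoupling protein Ucp1, the mouse enzyme Acot11 is known as a cold-inducible brake on fatty acid use, and Acot1 and Acot2 are known targets of the nuclear receptor PPAR-alpha in mouse liver and heart. Acot1 and Acot2 are close copies with an alpha/beta-hydrolase fold, while Acot7, Acot9, Acot11 and Acot13 have the unrelated hotdog fold.

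Acot1 and Acot2 lie beside each other on chromosome 12 and encode a cytosolic and a mitochondrial enzyme. Their coding sequences, of 1257 and 1359 bases, were 95.6% identical over 1236 aligned bases, with a longest shared run of 273 bases. Of the aligned bases 1181 were identical, and most of the differing bases lie outside the stretches below. The stretches are shown because they border that run and hold bases that differ between the copies. They hold the 60 bases before that run and its first 20 bases, on the coding strand, from GENCODE M21 transcripts, with the 13 differing bases in capitals.
Acot1, coding bases 827 to 906: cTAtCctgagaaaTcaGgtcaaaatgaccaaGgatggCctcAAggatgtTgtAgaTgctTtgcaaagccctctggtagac
Acot2, coding bases 950 to 1029: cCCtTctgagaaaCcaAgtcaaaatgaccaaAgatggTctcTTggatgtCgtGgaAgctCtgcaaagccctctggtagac
Windows were taken from the transcript with the longest coding sequence of each gene. Of all 100-base windows of the Acot1 transcript, 21.9% also occurred in another gene (Acot2 to Acot6), and of those of Acot2, 17.1% occurred in Acot1. How such reads were counted is not given in the sources used here, so the split of counts between Acot1 and Acot2 is uncertain. Read length was not given either, and with 50-base windows the shares were 33.6% for Acot1 and 27.7% for Acot2. The 50-base share of Acot1 also holds windows found in genes outside the family, such as Pdk4 and Pax6. For Acot9 the share was 0.968% with 100-base and 20.2% with 50-base windows, all with Acot10, which had 0 to 4 counts per library. For Acot7, Acot11 and Acot13 it was 0% with both. The exons of Acot11 overlap those of Fam151a, a gene on the opposite strand, over 20.9% of their length, and Fam151a had 0 to 4 counts per library.

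The 250 bases before the start sites of Acot1 and Acot2 are shown because Acot1 and Acot2 were the genes of the 6 in which every KO library lay below every WT library. They are RefSeq windows of the GRCm38.p6 build on the plus strand, and capitals mark matches to the motifs searched.
Acot1, chr12:84009252-84009501: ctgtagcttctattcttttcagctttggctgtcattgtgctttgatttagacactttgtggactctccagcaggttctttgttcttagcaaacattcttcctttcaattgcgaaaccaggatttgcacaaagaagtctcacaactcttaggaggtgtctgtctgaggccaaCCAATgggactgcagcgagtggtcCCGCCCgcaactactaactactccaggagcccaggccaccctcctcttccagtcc
Acot2, chr12:83987611-83987860: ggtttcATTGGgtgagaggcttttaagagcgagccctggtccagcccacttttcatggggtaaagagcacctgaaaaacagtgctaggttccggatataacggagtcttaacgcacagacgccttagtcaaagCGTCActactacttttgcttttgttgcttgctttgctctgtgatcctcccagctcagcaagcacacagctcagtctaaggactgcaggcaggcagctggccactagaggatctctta
Both strands were searched. The Acot1 window held CCAAT at 79 to 75 bases before the start and the GC box GGGCGG on the reverse strand at 55 to 50 bases. The Acot2 window held CCAAT on the reverse strand at 244 to 240 bases and TGACG, the core of the cyclic AMP response element, on the reverse strand at 117 to 113 bases. Among 32851 promoter windows of the same length, CCAAT occurred in 33.8%, GGGCGG in 32.7% and TGACG in 17.8%. The nuclear receptor core motif AGGTCA, found in 14.02% of windows, its direct repeat spaced by 1 base, found in 0.0335%, and the full element TGACGTCA, found in 1.55%, matched in none of the windows of Acot1, Acot2, Acot7, Acot9 and Acot11. Only exact letters within these 250 bases were searched, so sites with other letters or farther away would be missed.

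Library totals ran from 33672272 to 43253559 counts in WT and from 35734373 to 40927141 in KO. Fermt2 stood at 230 ± 19.4 CPM (counts scaled to library size; SD, n = 4) in WT and 168 ± 25.3 in KO, with every KO library below every WT library. Its log2 fold change was -0.45 ± 0.14 (SE), with an adjusted p of 0.134 by edgeR's quasi-likelihood test, and -0.32 ± 0.12 (adjusted p of 0.159) without libraries WT3 and KO2. Libraries WT3 and KO2 stood apart: 12 skeletal muscle markers summed to 43160 CPM in WT3 and 6.18 to 290 CPM in the libraries other than WT3 and KO2, and 12 interferon-response genes summed to 4750 CPM in KO2 and at most 443 CPM elsewhere. Fold changes and ratios of the thioesterase genes are therefore given with all 8 libraries and with the 6 that remain without WT3 and KO2.

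Acot1 and Acot2 had the largest differences of the 6 genes. Both were lower in KO, Acot1 at 38.6% and Acot2 at 46.7% of the WT mean. Neither passed an adjusted p of 0.05 with 8 libraries, and both fell with 6 libraries. No gene of 13901 passed with 8 libraries (0%), where the smallest adjusted p of any gene was 0.08, while 208 of 13901 genes (1.50%) passed as lower in KO with 6.

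Acot1, the cytosolic copy, was measured at 29.8, 30.6, 46.0 and 33.1 CPM in WT1 to WT4 and at 18.6, 7.95, 14.8 and 12.6 CPM in KO1 to KO4. Every KO library lay below every WT library, with the highest value in WT3, the library with the high muscle sum, and the lowest in KO2. The WT mean was 34.9 ± 7.55 CPM and the KO mean 13.5 ± 4.42 CPM (SD, n = 4 each). The log2 fold change was -1.37 ± 0.25 (SE; 95% interval -1.94 to -0.80), with an adjusted p of 0.0915 by edgeR (unadjusted 0.000389). With 6 libraries it was -1.03 ± 0.16, with an adjusted p of 0.0289 by edgeR. Of all tested genes, 295 had a lower log2 fold change than Acot1 and 54 had a smaller p.

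Acot2, the mitochondrial matrix copy, was measured at 103, 105, 133 and 140 CPM in WT1 to WT4 and at 68.2, 34.5, 66.8 and 55.2 CPM in KO1 to KO4. Here too every KO library lay below every WT library, and KO2 was the lowest of all. The WT mean was 120 ± 19.1 CPM and the KO mean 56.2 ± 15.6 CPM (SD, n = 4 each). The log2 fold change was -1.10 ± 0.22 (95% interval -1.58 to -0.61), with an adjusted p of 0.0915 by edgeR (unadjusted 0.000577). With 6 libraries it was -0.87 ± 0.15, with an adjusted p of 0.0332 by edgeR. Of all tested genes, 399 had a lower log2 fold change and 85 a smaller p.

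Both copies also passed as lower with 8 libraries under 2 other tools, DESeq2 (adjusted p of 5.72e-05 for Acot1 and 0.000296 for Acot2) and limma-voom with library quality weights (adjusted p of 0.0227 for each). Those tools called 4.71% of 12778 and 3.62% of 13901 genes lower in KO. Over all alternatives the adjusted p of Acot1 ran from 5.72e-05 to 0.238 and that of Acot2 from 0.000296 to 0.238. The summed level of 12 brown adipocyte markers was also lower in KO, with 11 of 12 markers lower and none at 0. It ranged over 9163 to 11332.5 CPM among WT libraries and over 5312 to 8848 CPM among KO libraries (without WT3 and KO2, 10674 to 11332.5 and 6363 to 8848 CPM). Within the groups the sum followed the 2 genes in part. WT3 had the lowest WT sum and the highest Acot1, and KO1 had the highest KO values of both genes with a sum of 6363 CPM. KO2 had the lowest sum, at 5312 CPM, and the lowest values of both genes. From WT1 to WT2 to WT4 the sum and both genes rose. The median log2 fold change of these markers was -0.38. Ucp1, which defines brown fat, averaged 5983 ± 645 CPM over the WT and 3258 ± 1158 CPM over the KO libraries (SD, n = 4 each; log2 fold change -0.88 ± 0.25), whereas Cidea, another abundant brown fat marker, averaged 2495 ± 239 and 2343 ± 178 CPM (-0.09 ± 0.12). The 12 endothelial markers moved the other way, ranging over 1581 to 2182 CPM among WT libraries and over 1996 to 3527 CPM among KO libraries, with 12 of 12 higher and none at 0 (without WT3 and KO2, 2001 to 2182 and 2708 to 3527 CPM). The part of these shifts in the lower Acot1 and Acot2 counts was not tested, and in bulk tissue fewer cells of a type and less RNA per cell cannot be told apart.

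**Figure D1:**
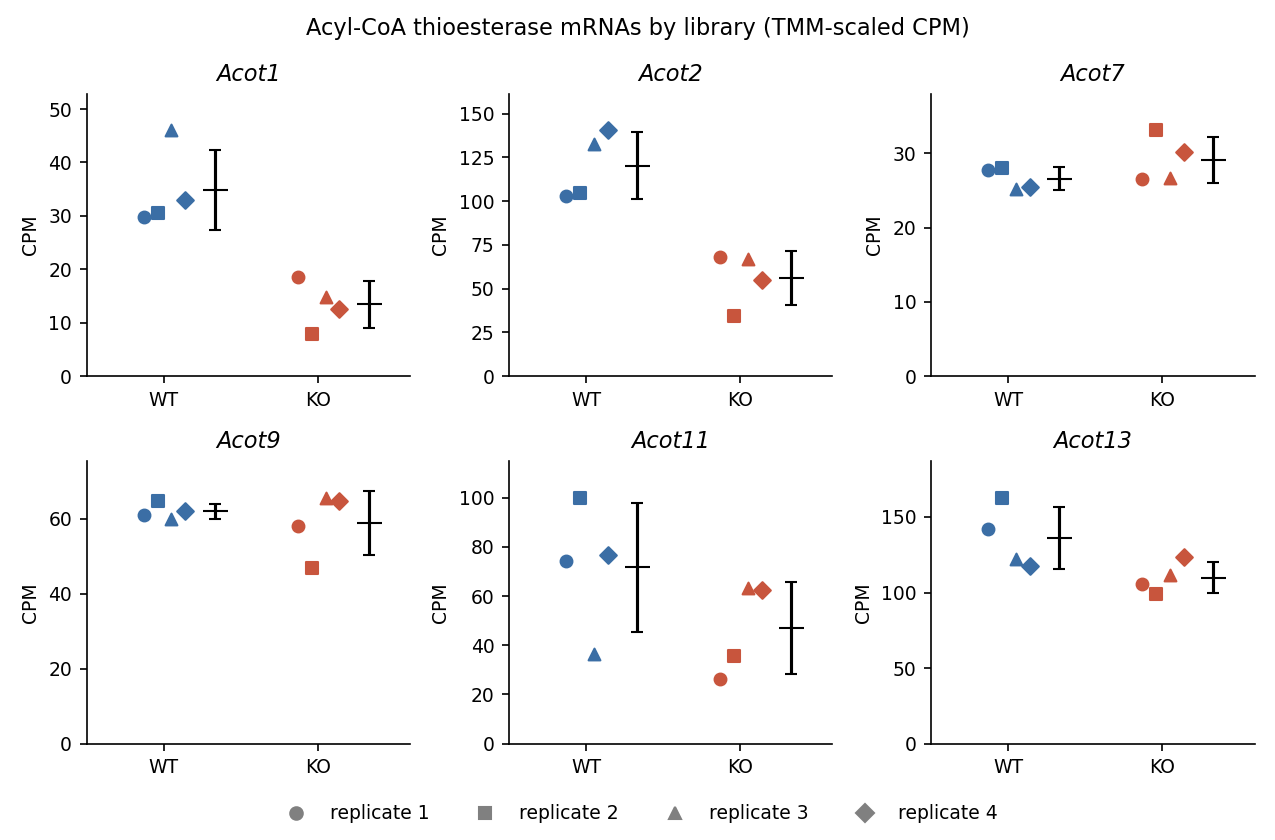
Level of each of the 6 genes in CPM (y axis, linear, starting at 0) in the 4 WT and 4 KO libraries, with a marker shape for each replicate number and a line and bar for the mean and SD. All KO points of Acot1 (7.95 to 18.6 CPM) and Acot2 (34.5 to 68.2 CPM) lie below all WT points, while the groups overlap for Acot7, Acot9, Acot11 and Acot13.

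The ratio of Acot1 to Acot2 counts, which does not depend on how libraries are scaled, was 28.9, 29.2, 34.7 and 23.5 Acot1 reads per 100 Acot2 reads in WT1 to WT4 and 27.2, 23.1, 22.1 and 22.8 in KO1 to KO4. The groups overlapped at WT4 and KO1. The mean log2 ratio was -1.79 ± 0.229 in WT and -2.07 ± 0.134 in KO (SD, n = 4 each), a difference of -0.28 that missed the threshold (exact permutation test, two-sided, p = 0.0571, also after adjustment over the 2 ratios tested). Without WT3 and KO2 the difference was -0.18.

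Acot9, a hotdog-fold thioesterase of the mitochondrial matrix, shares its compartment with Acot2. It was measured at 61.1, 64.6, 60.0 and 62.0 CPM in WT1 to WT4 and at 58.1, 46.9, 65.5 and 64.8 CPM in KO1 to KO4. The WT libraries were close together, KO2 was low, and the groups overlapped. The log2 fold change was -0.07 ± 0.12 (95% interval -0.35 to 0.20), with an adjusted p of 0.745 by edgeR, and it was 0.01 ± 0.11 with 6 libraries. Read ratios gave 59.2, 61.6, 45.2 and 44.1 Acot9 reads per 100 Acot2 reads in WT1 to WT4 and 85.3, 136, 98.0 and 117 in KO1 to KO4. Every KO library had the higher ratio. The mean log2 ratio was -0.94 ± 0.253 in WT and 0.10 ± 0.295 in KO (SD, n = 4 each), a difference of 1.05, with p = 0.0286 in the exact two-sided permutation test, the smallest that 4 against 4 allows, and 0.0571 after adjustment over the 2 ratios. Without WT3 and KO2 the difference was 0.87.

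Acot13, also called Them2, is a small thioesterase associated with mitochondria that binds the phosphatidylcholine transfer protein Pctp. It was measured at 142, 163, 122 and 118 CPM in WT1 to WT4 and at 105, 99.1, 112 and 123 CPM in KO1 to KO4. KO4 lay above WT3 and WT4, so the groups overlapped. The means were 136 ± 20.6 and 110 ± 10.4 CPM (SD, n = 4 each). The log2 fold change was -0.31 ± 0.13 (95% interval -0.61 to -0.01), with an adjusted p of 0.219 by edgeR (unadjusted 0.0427). With 6 libraries it was -0.31 ± 0.14. Pctp, its partner, had a log2 fold change of -0.60 ± 0.22, with an adjusted p of 0.184 by edgeR, and -0.77 ± 0.20 with 6 libraries (adjusted p of 0.0653).

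Acot7, a cytosolic enzyme known for its high level in brain, was measured at 27.8, 28.1, 25.2 and 25.4 CPM in WT1 to WT4 and at 26.6, 33.1, 26.7 and 30.1 CPM in KO1 to KO4. KO2 was the highest library, and KO1 and KO3 lay within the range of WT. The log2 fold change was 0.13 ± 0.11 (95% interval -0.12 to 0.38), with an adjusted p of 0.497 by edgeR, and it was 0.04 ± 0.12 with 6 libraries. KO2 is also the library with the high interferon-response sum, and the part of that in its Acot7 value was not tested.

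Acot11, also called Them1 and known in mouse as a cold-inducible thioesterase of brown fat, varied most between libraries. It was measured at 74.1, 99.97, 36.6 and 76.6 CPM in WT1 to WT4 and at 26.5, 35.7, 63.1 and 62.7 CPM in KO1 to KO4. WT3, the library with the high muscle sum, lay close to KO2 and below KO3 and KO4. The coefficient of variation was 36.5% in WT and 39.9% in KO, against 3.17% and 14.7% for Acot9. The log2 fold change was -0.61 ± 0.36 (95% interval -1.43 to 0.21), with an adjusted p of 0.34 by edgeR. With 6 libraries it was -0.72 ± 0.32, with an adjusted p of 0.238 by edgeR, and its 8-library interval held 0 as well as a decrease larger than that of Acot2.

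Over the 6 genes, 5 were lower in KO and 1 (Acot7) was higher. The sign of Acot9 was not stable: it turned to 0.18 with total library size as the scaling, 0.018 with quality weights, 0.0061 with 6 libraries and 0.021 without KO2. The median log2 fold change of the 6 genes was -0.46 beside 0.004 over all tested genes, and -0.51 beside 0.01 with 6 libraries. Acot1, Acot2 and Acot13 had an unadjusted p under 0.05 and were lower, as were 11.1% of all tested genes. Acot1 and Acot2 had every KO library below every WT library, as did 7.56% of all tested genes.

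**Figure D2:**
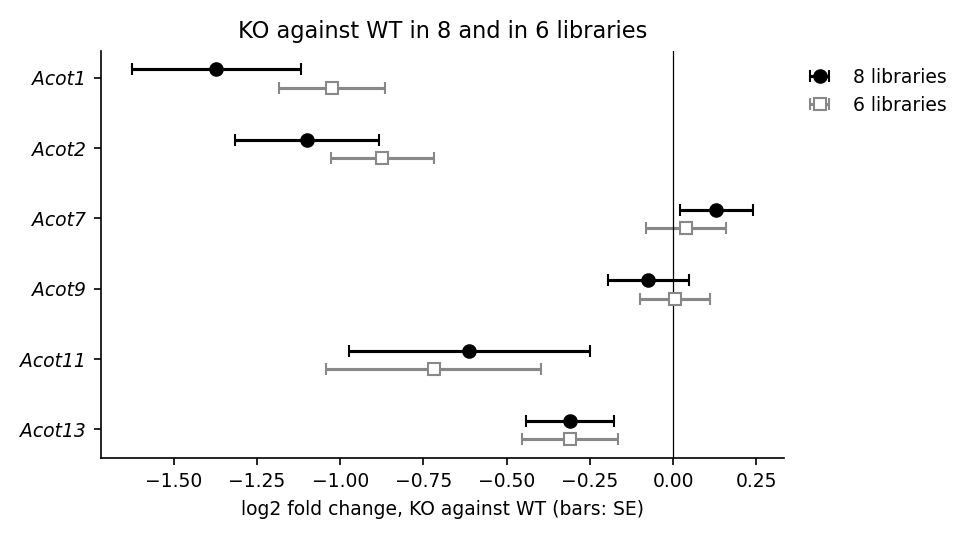
Log2 fold change, KO minus WT (x axis), of the 6 genes by edgeR with 8 libraries and with 6, with bars for the standard error. Acot1 (-1.37 and -1.03) and Acot2 (-1.10 and -0.87) lie to the left of 0 beyond their bars, and Acot7 (0.13 and 0.04) and Acot9 (-0.07 and 0.01) lie near 0.

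Levels were compared between genes as CPM per kilobase of transcript, with GENCODE M21 transcript lengths. In WT the order was Acot13 (189 ± 28.5), Acot2 (54.8 ± 8.70), Acot9 (35.3 ± 1.121), Acot11 (24.4 ± 8.92), Acot7 (17.7 ± 0.995) and Acot1 (15.4 ± 3.32; SD, n = 4). The library ranges of Acot13, Acot2 and Acot9 did not overlap in WT, whereas Acot11 ran from 12.4 to 34.015 and overlapped both Acot7 and Acot1, which also overlapped each other. In KO Acot9 and Acot2 changed places, with Acot9 at 33.6 ± 4.92 and Acot2 at 25.6 ± 7.10, whose ranges of 26.8 to 37.4 and 15.7 to 31.0 overlapped. Acot7 followed at 19.4 ± 2.07 and Acot11 at 16.0 ± 6.38, which overlapped. Acot1 was lowest in both groups, at 5.93 ± 1.95 in KO, where no library of it reached the Acot11 range. Of the summed level of the 6 genes per kilobase, which was 336 ± 28.1 in WT and 253 ± 27.7 in KO, Acot2 made up 16.5% in WT and 10.04% in KO and Acot13 55.9% and 60.4%. With the summed length of all exons in place of transcript length, the level of Acot11 in WT was 11.9 and that of Acot1 8.90 in WT and 3.44 in KO, and Acot7 (12.5) and Acot11 changed places in WT. By that length Acot9 and Acot2 were nearly level in KO, at 25.9 ± 3.79 and 25.6 ± 7.10. The KO ranges of Acot1 (2.03 to 4.73) and Acot11 (4.38 to 10.4) then overlapped.

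Acot3, Acot4, Acot5 and Acot6 are the other thioesterases of the chromosome 12 cluster. Acot4, a peroxisomal enzyme, was measured at 16.2, 22.8, 20.6 and 26.7 CPM in WT1 to WT4 and at 18.7, 13.1, 17.5 and 14.6 CPM in KO1 to KO4. Its groups overlapped, with a log2 fold change of -0.43 ± 0.18 and an adjusted p of 0.209 by edgeR (-0.37 ± 0.19 with 6 libraries). Acot6 had -0.48 ± 0.29 (adjusted p of 0.348 by edgeR) and -0.42 ± 0.33 with 6 libraries. Acot3 had -1.35 ± 0.73 (adjusted p of 0.301 by edgeR) and -1.14 ± 0.84 with 6 libraries, from 2 to 31 counts per library. Acot5, with 0 to 12 counts per library, was not tested. Acot3 to Acot6 share windows with Acot1, so their counts carry the same uncertainty.

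Of the 6 annotated genes on each side of the cluster, 8 were tested, and 5 of these were lower in KO, with log2 fold changes from -0.55 to 0.83. The lowest was Ptgr2, a prostaglandin reductase, at -0.55 ± 0.12 (adjusted p of 0.0981 by edgeR with 8 libraries and 0.0289 with 6), and every KO library lay below every WT library for it. On the other side, Rbm25 and Numb were at 0.50 ± 0.12 and 0.51 ± 0.15 and rose with 6 libraries (adjusted p of 0.0442 and 0.0425 by edgeR).

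**Figure D3:**
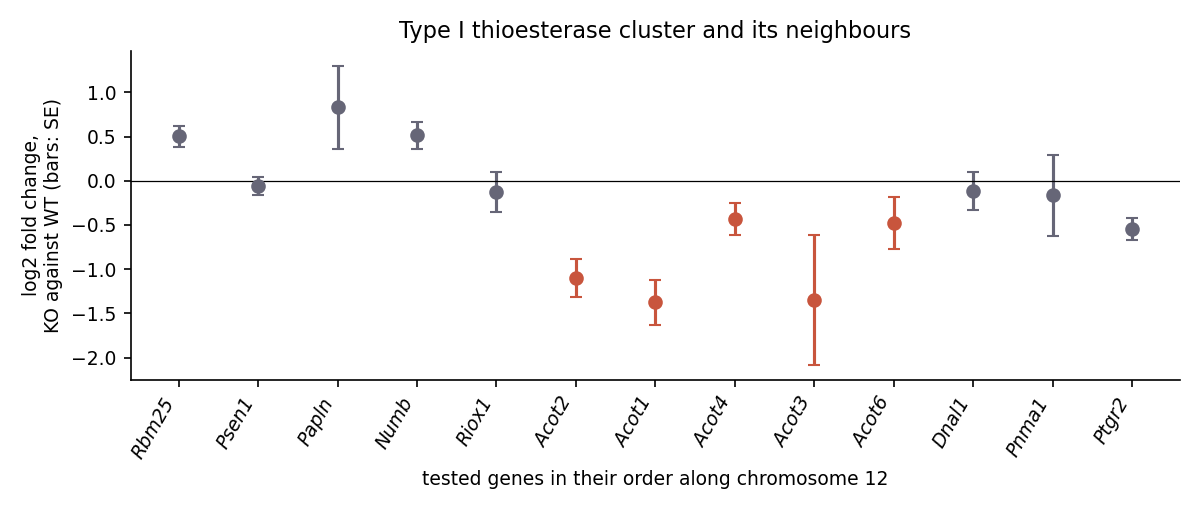
Log2 fold change, KO minus WT (y axis), of the tested genes in their order along chromosome 12 (x axis, gene order only), with bars for the standard error. Acot2 (-1.10) and Acot1 (-1.37) lie below their tested neighbours other than Acot3 (-1.35), which has 2 to 31 counts per library.

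Among 18 other thioesterase genes, 11 were tested and 10 were lower in KO (median log2 fold change -0.43, and -0.37 with 6 libraries), and 1 fell with 6 libraries. Over all 13901 tested genes, 6884 were lower in KO, and 1.50% fell with 6 libraries. That gene was Hibch, the 3-hydroxyisobutyryl-CoA hydrolase of valine breakdown, at -0.68 ± 0.13 (adjusted p of 0.0915 by edgeR with 8 libraries and 0.0289 with 6). Acot8, a peroxisomal thioesterase, had -0.48 ± 0.15 (-0.54 ± 0.15 with 6 libraries) and Lypla1, which removes acyl groups from proteins, -0.59 ± 0.13 (-0.58 ± 0.15 with 6 libraries). Acot5, Acot10, Acot12, Them5, Them7 and Baat, the bile acid conjugating enzyme, did not pass the filter on low counts, and Olah was not matched.

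The acyl-CoA synthetases, which work in the opposite direction, had 12 of 16 tested genes lower, with a median of -0.41 (-0.39 with 6 libraries), and 4 fell with 6 libraries, beside 1.50% of all tested genes. Acsl1, the main long-chain synthetase of adipose tissue, had -0.78 ± 0.19 (adjusted p of 0.103 by edgeR with 8 libraries and 0.0486 with 6). Slc27a2, a very long-chain synthetase, had -0.76 ± 0.14 and Acsm3, a medium-chain synthetase, -1.07 ± 0.31, and both fell with 6 libraries (adjusted p of 0.0289 and 0.0361 by edgeR).

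Of mitochondrial beta-oxidation and the carnitine shuttle, 19 of 22 tested genes were lower, with a median of -0.56 (-0.63 with 6 libraries), and 8 fell with 6 libraries, beside 1.50% of all tested genes. Acadvl, the very long-chain acyl-CoA dehydrogenase, had -1.17 ± 0.22 and Etfdh, which passes its electrons to ubiquinone, -0.87 ± 0.13 (adjusted p of 0.0915 and 0.0874 by edgeR with 8 libraries and 0.0289 for each with 6). Crat, carnitine acetyltransferase, had -0.59 ± 0.13 and did not pass with 6 libraries (adjusted p of 0.0601 by edgeR).

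The PPAR-alpha list held 21 genes, without Acot1 and Acot2. Beside target genes it held Ppara itself and the regulators Ppargc1a, Esrra and Esrrg. Of the 21 genes, 20 were lower, with a median of -0.61 (-0.63 with 6 libraries). With 6 libraries 4 fell, beside 1.50% of all tested genes. Ehhadh, the peroxisomal bifunctional enzyme, was measured at 231, 259, 368 and 396 CPM in WT1 to WT4 and at 122, 66.1, 143 and 112 CPM in KO1 to KO4. No KO library reached the WT range. Its log2 fold change was -1.50 ± 0.26 (adjusted p of 0.0915 by edgeR with 8 libraries and 0.0313 with 6). Pdk4, a kinase that restrains glucose oxidation, had -0.90 ± 0.22 and fell with 6 libraries (adjusted p of 0.0313 by edgeR). The members of these lists were chosen with earlier results of these data known, and Vnn1, Cpt1b and Slc25a20 stand in more than 1 of them. Ppargc1a stands both in the PPAR-alpha list and among the brown adipocyte markers. The brown adipocyte marker sum given above was lower in KO beside the thioesterase, synthetase, beta-oxidation and PPAR-alpha lists alike. Of 12 general adipocyte markers 11 were lower too, with a median of -0.45 (-0.42 with 6 libraries). The part of either marker set in these lists was not tested.

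**Figure D4:**
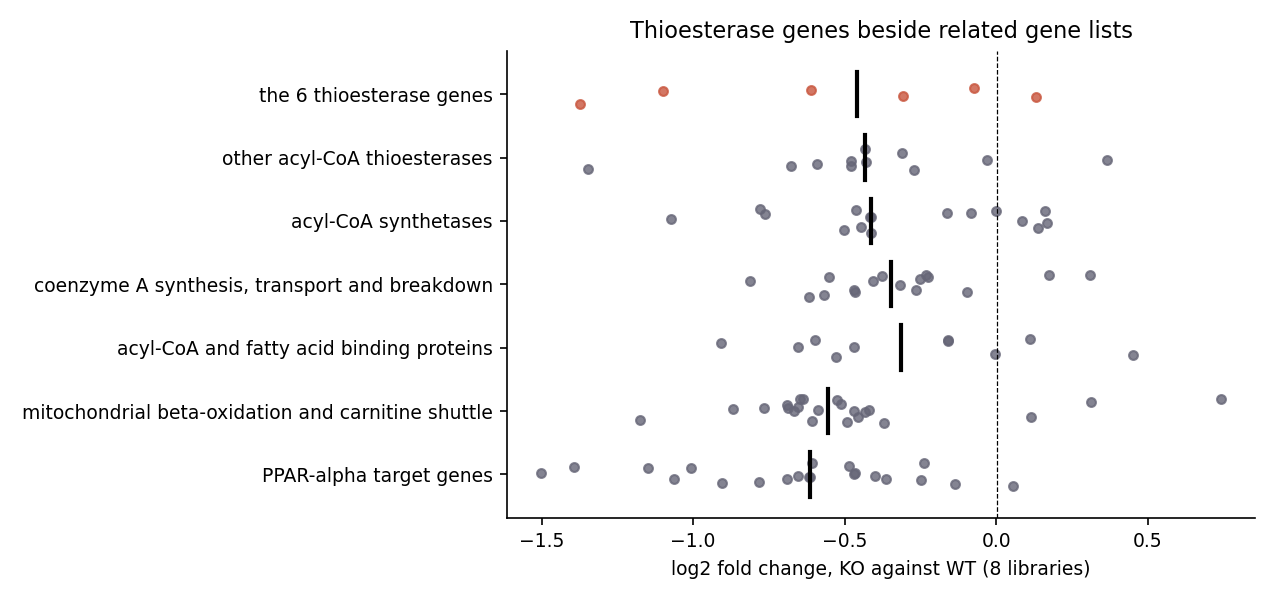
Log2 fold change, KO minus WT (x axis), of each tested gene (points) in each list, with a line at the list's median. The medians are -0.46 for the 6 genes, -0.43 for other thioesterases, -0.41 for acyl-CoA synthetases and -0.56 for beta-oxidation. The median is -0.61 for the list labelled PPAR-alpha target genes, which also holds Ppara and other regulators.

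Across the 8 libraries, the gene most like Acot2 was Ehhadh, with a Pearson correlation of log2 CPM of 0.990 (0.987 over 6 libraries), followed by Trp53inp2 (0.983) and Acot1 (0.976). The gene most like Acot1 was Acot2 itself, followed by Man2a2 (0.970) and Hoga1 (0.969). Acot11 was most like Letmd1 (0.989, and 0.984 over 6 libraries), Letm1 (0.982) and Tmem53 (0.980), and Acot13 was most like Pgpep1 (0.962), Grtp1 (0.956) and Gstk1 (0.949). Acot9 was most like Sybu at 0.977, which was 0.852 over 6 libraries, and Acot7 was most like Batf2 at 0.957, which was 0.880. Batf2, an interferon-responsive gene, was at 25.3 CPM in KO2 and at 0.469 to 2.86 CPM elsewhere. Between the 6 genes, Acot7 ran against Acot1 (-0.811) and Acot2 (-0.849), and Acot11 ran with Acot13 (0.755). These correlations are descriptions: all genes share the same libraries and the same group difference, which makes any genes that differ between the groups correlate. With the group means removed, the best-correlated pairs ran from 0.839 (Acot1 and Hoga1) to 0.990 (Acot9 and Sybu), with 0.960 for Acot2 and Ehhadh. These pairs were picked as the most alike among all tested genes in these same libraries.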

How the data were processed

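RNA was measured in 8 mouse adipose libraries, 4 WT and 4 KO. The table holds whole-number read counts per Ensembl gene, deposited by the authors with no normalization visible in the values. Reads were placed on GRCm39, according to the submitters' processing notes. The library kit incorporates dUTP and so marks strand, per the labels' protocols. The aligner, counter, annotation, counting strand and treatment of reads with several matches were not given in the sources used here. Symbols were taken from GENCODE M21 names, which matched 18321 identifiers and left 74 unmatched. Groups came from the genotype label.

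Counts were filtered with filterByExpr (13901 genes), scaled by TMM and tested with edgeR 4.0.16 (quasi-likelihood F test, robust, group only, Benjamini-Hochberg over all tested genes, threshold 0.05) in R 4.3.3. DESeq2 1.42.0 and limma 3.58.1 were alternatives, as were other scalings and filters, a replicate block, leaving out each library and leaving out both WT3 and KO2. The tests were checked on simulated data. No 2 libraries agreed within sampling noise (lowest chi-square per degree of freedom 28.5). CPM values use TMM-scaled totals, correlations add a prior count of 2, and ratios add 0.5 to each count. Library totals ran from 33672272 to 43253559 counts.

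All 6 genes are reported in every library. In each list the 3 tested genes with the smallest unadjusted p were named, with every other tested Acot gene and the 3 genes best correlated with each of the 6. A gene that this rule names is not reported here. Pctp, Ucp1, Batf2 and the cluster's neighbours were named because a result turns on them. The genes and lists were chosen with earlier results of these data known. Promoter sequences are RefSeq windows (GRCm38.p6; 5 of 6 genes matched, not Acot13), and coding sequences and lengths are from GENCODE M21, which is GRCm38, so no gene coordinates in the build of the counts are given.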

Additional observations from a re-analysis of the deposited data

Results flagged for a closer look

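Of 24 groups of 4 libraries, 1 had a library far from the others, and chance flags about 1 in 20. It was Acot3 in KO, where KO1 stood at 0.714 CPM and the other KO libraries at 0.0535 to 0.134 CPM. The gap was 0.878 of the whole range, above the critical value of 0.829. Acot3 had at most 31 counts in any library.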

How the results depend on the processing

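Across 18 alternatives, Acot1, Acot2, Acot11 and Acot13 were lower and Acot7 higher in KO in each, and Acot7, Acot11 and Acot13 were called in none. With total library size Acot13 was at -0.05, Acot7 at 0.39 and Acot11 at -0.38. Acot1 passed the threshold with total library size (-1.10), DESeq2 (-1.38), voom with quality weights (-1.26) and 6 libraries (-1.03). Acot2 passed with DESeq2 (-1.11), quality weights (-0.995) and 6 libraries (-0.87) and not with total library size (-0.83). Leaving out 1 library gave -1.57 to -1.19 for Acot1 and -1.21 to -0.92 for Acot2, and both passed only without KO2 (adjusted p = 0.0322 by edgeR for each). Acot9 turned to 0.18 with total library size, 0.018 with quality weights, 0.0061 with 6 libraries and 0.021 without KO2, and ran from -0.14 to 0.021 with 1 library left out. With total library size the median of all genes moved to 0.26, and relative to it Acot1 stood at -1.36, Acot2 at -1.10, Acot7 at 0.12, Acot9 at -0.08, Acot11 at -0.64 and Acot13 at -0.32.

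The count of called genes was 0 with edgeR, where 2993 genes had an unadjusted p under 0.05. It was 882 with total library size (24 lower and 858 higher), 1 with no filter, 1113 with DESeq2, 911 with quality weights, 461 with 6 libraries, and 0 to 361 with 1 library left out (361 without KO2, 3 without WT4 and 1 without WT1). The cause of these differences was not tested. The Acot1 to Acot2 log2 ratio difference ran from -0.38 to -0.19 and the Acot9 to Acot2 one from 0.94 to 1.16 with 1 library left out. Total library size moved the medians to -0.17 for other thioesterases, -0.15 for synthetases, -0.10 for coenzyme A genes and -0.06 for binding proteins. It moved them to -0.30 for beta-oxidation, -0.35 for the PPAR-alpha list and -0.22 for the 6 genes. The binding proteins' median was -0.11 without KO1.

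With the replicate number as a block, Acot1 was at -1.42 and Acot2 at -1.13 (adjusted p = 0.111 by edgeR for each), no gene was called, and 2690 had an unadjusted p under 0.05. Both ratios then had p = 0.125 in an exact sign-flip test of the differences between same-numbered libraries. That is the smallest p that 4 pairs allow, so neither could pass. The values gave no clear sign that the numbers pair the libraries, but 4 pairs are too few to exclude it. Same-numbered residuals correlated at -0.130 to 0.224, and 3 of 8 libraries correlated best with their own number.

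Precision is limited by the spread between 4 libraries for Acot11 and by counts of at most 31 for Acot3.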

Other observations

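Genes of coenzyme A synthesis, transport and breakdown had 14 of 16 tested genes lower in KO (median log2 fold change -0.35, and -0.39 with 6 libraries), and 2 fell with 6 libraries, beside 1.50% of all tested genes. Slc25a16, a mitochondrial carrier, had -0.81 ± 0.18 (adjusted p of 0.0981 by edgeR with 8 libraries and 0.0316 with 6). Nudt7, a peroxisomal enzyme that breaks down coenzyme A, had -0.38 ± 0.13, and Pank3, a pantothenate kinase of the first step of coenzyme A synthesis, had -0.57 ± 0.22. Neither of these passed with 6 libraries.

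Acyl-CoA and fatty acid binding proteins had 8 of 10 tested genes lower, with a median of -0.31 (-0.30 with 6 libraries). With 6 libraries 1 fell, beside 1.50% of all tested genes. The gene that fell was Acbd4, an acyl-CoA binding protein, at -0.65 ± 0.15 (adjusted p of 0.0981 by edgeR with 8 libraries and 0.0335 with 6). Its relative Acbd5 had -0.47 ± 0.12 and Scp2, a peroxisomal sterol carrier and thiolase, had -0.53 ± 0.12. The brown adipocyte marker sum was lower in KO beside both lists, and its part was not tested.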
